A study of Gossypium hirsutum with 42 samples.

Results

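The enzymes of chlorophyll and heme synthesis were taken from the deposited expression table of upland cotton (Gossypium hirsutum) by the words of its gene descriptions. A row was a member when its description named glutamyl-tRNA reductase, glutamate-1-semialdehyde, porphobilinogen, hydroxymethylbilane, uroporphyrinogen, coproporphyrinogen, protoporphyrinogen, magnesium chelatase, magnesium-protoporphyrin, protochlorophyllide, chlorophyllide or chlorophyll synthase. This gave 39 of 100881 rows. The rule itself used no expression value, but it was set with earlier results of these data known. The members covered 11 enzymes or enzyme subunits, with 17 genes on chromosomes of the A subgenome, 20 on chromosomes of the D subgenome and 2 on unplaced scaffolds. Upland cotton is a tetraploid that carries an A and a D copy of most genes, and 17 A and D pairs could be formed by description and chromosome, without a check of gene order. The copies of a pair are close in sequence, so reads may have been shared between them and the level of a single copy is less certain than that of the pair. All 39 members also carried the KEGG term for porphyrin and chlorophyll metabolism.

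Chlorophyll and heme are made by a shared route that starts in the plastid from glutamate bound to a transfer RNA. Glutamyl-tRNA reductase, the main control point of the route in plants, and glutamate-1-semialdehyde aminomutase make the first precursor, and the following enzymes close and trim the porphyrin ring. Magnesium chelatase then directs the ring to chlorophyll, and protochlorophyllide oxidoreductase carries out a late step that needs light in flowering plants. In roots, which hold little chlorophyll, the early steps of the route also serve heme.

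The libraries came from seedlings grown in hydroponic culture and sampled once the 1st true leaves had expanded, with root and leaf taken from the same plant. The hybrids were H (SJ48-Z98-15), M (SJ48-851-2) and L (SJ48-DT-8), chosen for high, medium and low yield heterosis, and the inbreds were their common maternal parent A (SJ48) and the paternal parents B (Z98-15), C (851-2) and D (DT-8). Each of the 7 genotypes had 3 replicates in each tissue, giving 9 hybrid and 12 inbred libraries per tissue and 42 in all. The time of day of sampling was not given in the sources used here. Levels are FPKM, fragment counts scaled to transcript length and library size. Differences are on the scale of log2(FPKM + 1), which understates the change of weakly expressed genes, and a member was called when limma's adjusted p, taken over all genes tested, was under 0.05 and the log2 difference was above 1 or below -1. Genes entered a test when 3 or more libraries reached 1 FPKM: 33 members passed in root, 35 in leaf and 38 over both tissues.

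The library sums of FPKM lay between 391455.3 and 462951.6, and the read depth behind them was not in the table. The highest sum belonged to replicate 1 of M leaf. Its 5 strongest genes held 11.3% of the FPKM, against at most 5.31% in the other libraries. The comparisons of hybrids with inbreds in leaf and of M leaf with its parents were therefore also computed without this library. The 46 light-harvesting rows summed to between 7037.3 and 10956.9 FPKM in leaf libraries and to between 60.7 and 172.3 FPKM in root libraries. The 8 rows that the study named as late elongated hypocotyl genes, morning genes of the circadian clock, were lower in hybrids than in inbreds: 6 were called in root (median log2 difference -1.49) and all 8 in leaf (median -2.70). Whether this difference had a part in the results on the members was not tested.

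Leaf and root were compared over all 7 genotypes. Of the 38 members tested, 29 were called higher in leaf and 1 was called lower, against 10.0% called higher and 13.9% called lower among the 69603 genes tested. Of the 29, 4 passed the filter only through leaf, where they were high, as did 1 further member; of the 30 members that passed in each tissue, 25 were called higher in leaf and 1 lower. The median log2 difference of leaf minus root was 2.61 over the 38 members, those that passed only through leaf included, and -0.24 over all genes. All 21 leaf libraries lay above all 21 root libraries for 26 of the 38 members tested, against 8.79% of the genes tested. The 26 included the 4 called members that passed the filter only through leaf. For no member did all leaf libraries lie below all root libraries, against 16.3%. In bulk tissue, a smaller number of cells that express a gene and a lower level per cell cannot be told apart.

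**Figure D1:**
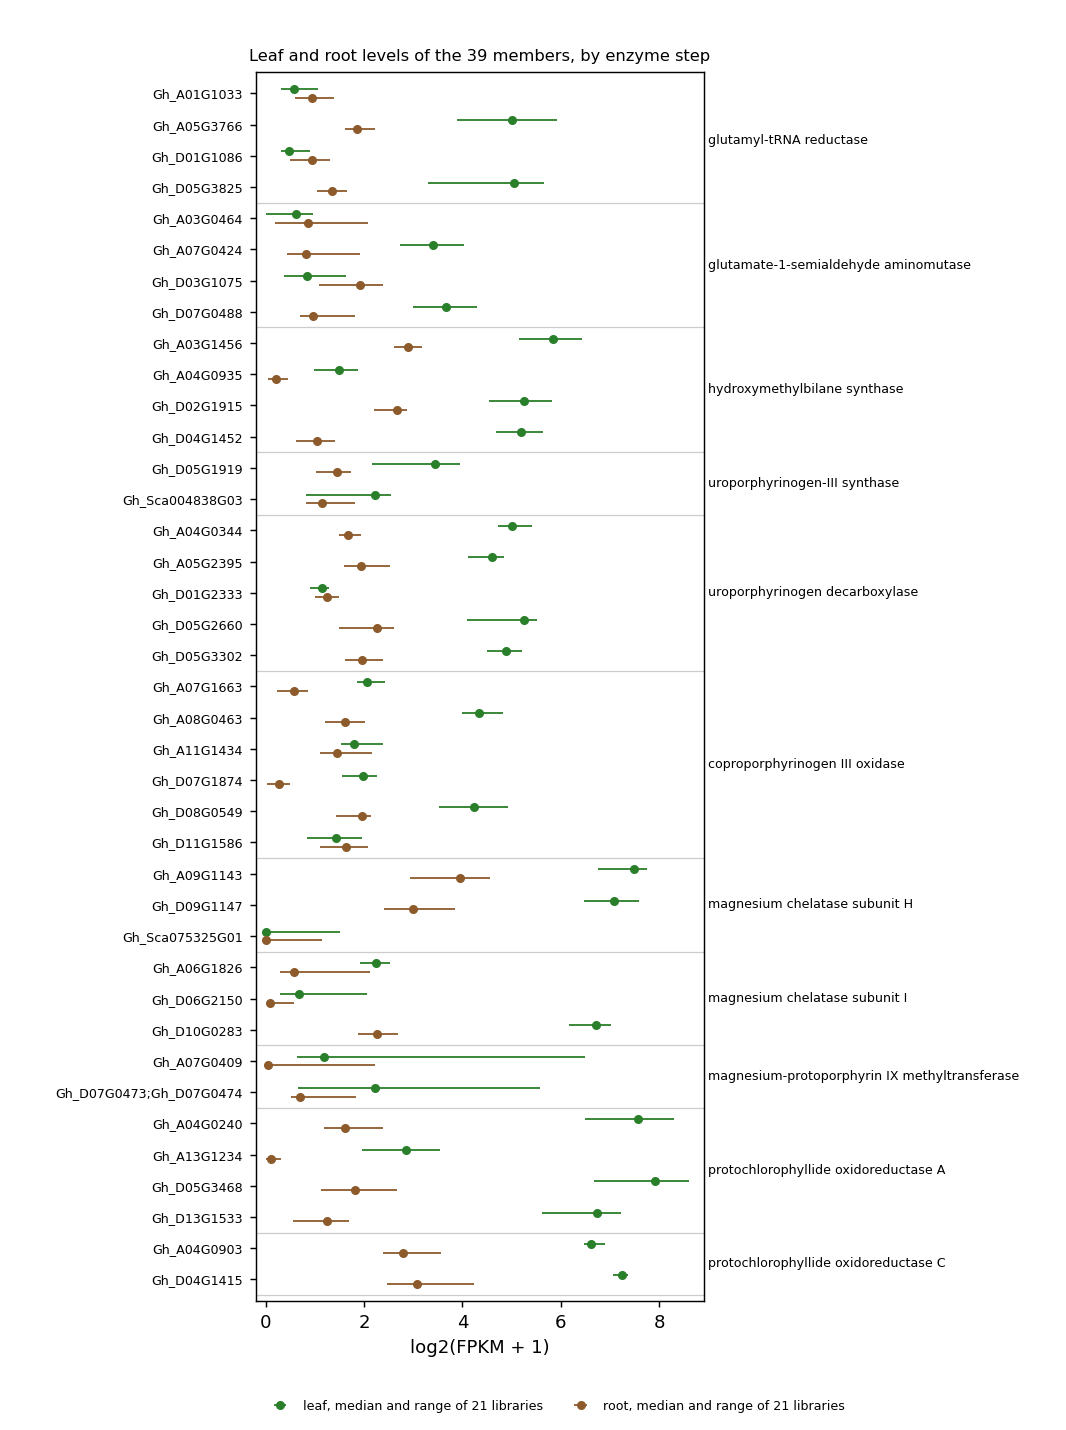
Levels of the 39 members in leaf and root, grouped by enzyme in pathway order, on an axis of log2(FPKM + 1). Points are medians of 21 libraries and lines run from the lowest to the highest library, with leaf in green above root in brown. The highest medians in leaf belong to protochlorophyllide oxidoreductase and magnesium chelatase genes, though other rows of these enzymes are weak. Gh_D03G1075 is the 1 member called lower in leaf.

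The enzymes of the first precursor had gene pairs that differed in their tissue pattern. Glutamyl-tRNA reductase Gh_A05G3766 ranged from 13.8 to 59.9 FPKM in leaf (median 31.3) and from 2.05 to 3.65 FPKM in root (median 2.62), a log2 difference of 3.09 ± 0.13 (SE). Its D copy Gh_D05G3825 had 8.87 to 49.2 FPKM in leaf and 1.05 to 2.16 FPKM in root (3.33 ± 0.08). The second pair of this enzyme was weak in both tissues: Gh_A01G1033 had a median of 0.492 FPKM in leaf and 0.908 in root, and Gh_D01G1086 0.382 in leaf and 0.926 in root, with log2 differences of -0.30 and -0.38 that passed the adjusted p but not the 2-fold limit. Both rows of this pair passed the filter only through root, where they were higher.

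Glutamate-1-semialdehyde aminomutase showed the same division. The copies on chromosome 7 were called higher in leaf, with Gh_A07G0424 at 5.59 to 15.3 FPKM in leaf and 0.355 to 2.77 FPKM in root (2.51 ± 0.10) and Gh_D07G0488 at 7.01 to 18.6 and 0.619 to 2.52 FPKM (2.62 ± 0.09). Gh_D03G1075 was the only member called lower in leaf. It had 0.299 to 2.10 FPKM in leaf, with a median of 0.788, and 1.13 to 4.24 FPKM in root, with a median of 2.77 (-1.03 ± 0.09, limma adjusted p 1.06e-12), and the ranges overlapped. Its A copy Gh_A03G0464 had medians of 0.536 FPKM in leaf and 0.823 FPKM in root. The summed level of the 4 rows was 23.5 ± 4.39 FPKM in leaf and 6.02 ± 1.11 FPKM in root (SD, n = 21 each).

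The ring-forming steps were called higher in leaf for 13 of their 17 members. Of the 13, hydroxymethylbilane synthase Gh_A04G0935 and coproporphyrinogen III oxidase Gh_A07G1663 and Gh_D07G1874 passed the filter only through leaf, where they were higher. Hydroxymethylbilane synthase, which joins the pyrrole units into a chain, had all 4 members called, with a summed level of 132.6 ± 24.7 FPKM in leaf and 13.0 ± 1.48 FPKM in root (SD, n = 21 each). Gh_A03G1456 was its strongest member, at 34.7 to 85.4 FPKM in leaf and 5.11 to 8.03 FPKM in root. Uroporphyrinogen-III synthase, which closes the ring, was represented by Gh_D05G1919 (3.45 to 14.4 FPKM in leaf and 1.02 to 2.32 FPKM in root, 1.90 ± 0.06) and Gh_Sca004838G03 (0.773 to 4.87 FPKM in leaf and 0.764 to 2.53 FPKM in root, 0.76 ± 0.05), of which Gh_D05G1919 was called.

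Uroporphyrinogen decarboxylase and coproporphyrinogen III oxidase trim the side chains of the ring. Of the 5 decarboxylase rows, 4 were called higher in leaf, led by Gh_D05G2660 (16.1 to 44.8 FPKM in leaf, 1.79 to 5.14 FPKM in root) and Gh_A04G0344 (25.5 to 41.6 and 1.82 to 2.81 FPKM). The fifth, Gh_D01G2333, had medians of 1.20 FPKM in leaf and 1.36 FPKM in root. Of the 6 oxidase rows, the pairs on chromosomes 7 and 8 were called, with Gh_A08G0463 highest at 14.8 to 27.4 FPKM in leaf and 1.32 to 3.07 FPKM in root. The pair on chromosome 7 passed the filter only through leaf, where it was higher. The pair on chromosome 11 differed little between tissues: Gh_A11G1434 had medians of 2.49 FPKM in leaf and 1.75 FPKM in root (0.31), and Gh_D11G1586 1.69 in leaf and 2.10 in root (-0.17).

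The strongest members in leaf were of magnesium chelatase and protochlorophyllide oxidoreductase. Magnesium chelatase subunit H, which binds the porphyrin, had Gh_A09G1143 at 107.5 to 213.8 FPKM in leaf and 6.59 to 22.6 FPKM in root (3.60 ± 0.05) and Gh_D09G1147 at 88.1 to 191.9 and 4.32 to 13.4 FPKM (4.02 ± 0.06). A further row of this subunit, Gh_Sca075325G01, was listed at 0 in 18 of 21 leaf libraries and 20 of 21 root libraries and passed no filter. Subunit I, the ATPase, was carried mainly by Gh_D10G0283, with 70.5 to 128.1 FPKM in leaf and 2.65 to 5.47 FPKM in root (4.39 ± 0.04). Gh_A06G1826 and Gh_D06G2150 were weak, with medians of 3.76 and 0.593 FPKM in leaf and 0.487 and 0.0661 FPKM in root, and the name Gh_D06G2150 also stood on a second locus without a description, which was not counted as a member.

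Protochlorophyllide oxidoreductase had the highest summed level of the member enzymes in leaf. The 4 rows described as form A summed to 550.8 ± 147.5 FPKM in leaf and 6.86 ± 2.71 FPKM in root, and the 2 rows described as form C to 249.9 ± 15.4 and 14.1 ± 4.52 FPKM (SD, n = 21 each). Form A is known from Arabidopsis as the form of dark-grown seedlings and form C as a form of green tissue. Gh_D05G3468, form A, had 101.0 to 390.2 FPKM in leaf, with a median of 241.6, and 1.17 to 5.36 FPKM in root, with a median of 2.53. Its log2 difference of 5.96 ± 0.08 was the highest of the members (limma adjusted p 6.56e-34). Form C varied little between leaf libraries, with Gh_D04G1415 at 132.0 to 164.7 FPKM and Gh_A04G0903 at 87.6 to 118.2 FPKM, against 4.51 to 17.8 and 4.19 to 10.8 FPKM in root. Thus the order of form A over form C in leaf was turned round in root, where form C had the higher sum.

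Magnesium-protoporphyrin IX methyltransferase, which acts between the chelatase and the reductase, was the most uneven step. Gh_A07G0409 ranged from 0.551 to 88.8 FPKM in leaf with a median of 1.26, and the row that carries the names Gh_D07G0473 and Gh_D07G0474 from 0.568 to 46.9 FPKM with a median of 3.69. Single libraries set the upper ends: Gh_A07G0409 had 88.8, 1.21 and 1.26 FPKM in D leaf, and Gh_D07G0473;Gh_D07G0474 had 41.8, 6.89 and 6.64 FPKM in M leaf and 46.9, 7.81 and 0.744 FPKM in C leaf. Both rows were called higher in leaf (1.05 ± 0.29 and 1.59 ± 0.27), with overlapping ranges.

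The share of a pair held by its D copy in leaf ranged from 16.8% to 95.2% over the 17 pairs. For hydroxymethylbilane synthase Gh_A04G0935 and Gh_D04G1452 the D copy held 95.2 ± 1.35%, and for the form A pair Gh_A13G1234 and Gh_D13G1533 94.1 ± 1.14% (SD, n = 21 each), with the D copy above the A copy in all 21 leaf libraries. For subunit I Gh_A06G1826 and Gh_D06G2150 the share was 16.8 ± 12.2%. The strongest pairs were more even, at 55.9 ± 2.04% for Gh_A04G0240 and Gh_D05G3468, 60.1 ± 1.88% for form C and 44.7 ± 4.36% for subunit H. These shares carry no test.

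Hybrid and inbred leaves were compared to ask which enzymes differed in level between the 3 hybrids and the 4 inbreds. The 1 called member, glutamyl-tRNA reductase Gh_D05G3825, averaged 16.6 ± 8.45 FPKM in hybrids and 37.8 ± 7.51 FPKM in inbreds (SD, n = 9 and 12), and both uroporphyrinogen-III synthase rows were lower in every hybrid library than in any inbred library. Of 35 members tested, 1 was called, lower in hybrids, which is 2.86% of the members against 2.56% of the 54835 genes tested called in either direction and 0.934% called lower. By the adjusted p alone, 5 members were higher and 8 lower, against 24.3% and 13.4% of all genes. The median log2 difference was -0.04 over the members and 0.07 over all genes. In this comparison the p-values measure the spread of replicates within genotypes, so the fit was repeated with genotype means as the units. Of the 13 members that passed the adjusted p in leaf, 3 passed in that fit (Gh_D05G3825, Gh_D05G1919 and Gh_Sca004838G03), and of the 10 in root, 2 passed (Gh_A09G1143 and Gh_A04G0903).

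**Figure D2:**
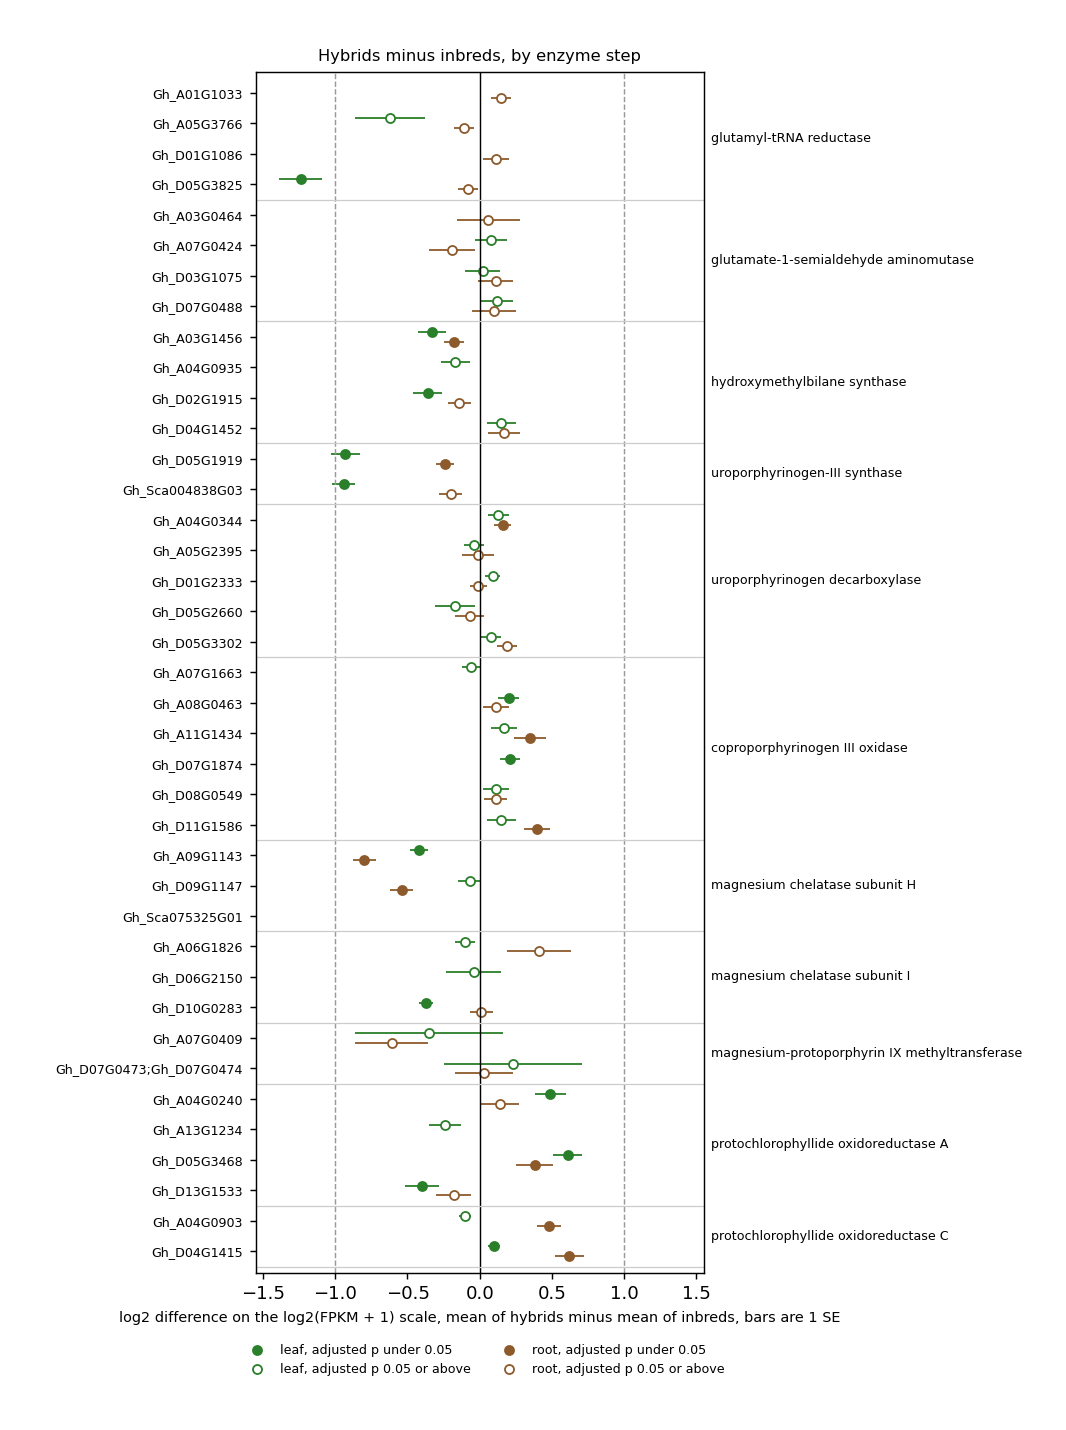
Log2 difference of hybrids minus inbreds for each member tested, in leaf and in root, with bars of 1 SE, in pathway order; filled points passed an adjusted p of 0.05. Gh_D05G3825 in leaf, at -1.24, is the 1 member beyond the dashed limit of 1 in either tissue, and the uroporphyrinogen-III synthase rows follow at -0.93 and -0.94.

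Glutamyl-tRNA reductase Gh_D05G3825 had 15.8, 29.5 and 31.9 FPKM in H leaf, 8.87, 13.3 and 9.30 FPKM in M leaf and 15.1, 14.7 and 10.5 FPKM in L leaf. In inbred leaves it had 19.6, 38.6 and 49.2 FPKM in A, 36.5, 36.5 and 35.6 FPKM in B, 42.2, 38.3 and 29.7 FPKM in C and 43.4, 41.1 and 42.7 FPKM in D. All M and L libraries lay below all inbred libraries, whereas 2 of the 3 H libraries lay within the inbred range, which reached down to 19.6 FPKM in A. The log2 difference was -1.24 ± 0.15 (SE, limma adjusted p 4.80e-06), and with genotype means as the units the adjusted p was 0.0212. Its A copy Gh_A05G3766 had a log2 difference of -0.62 ± 0.24 that missed the threshold (limma adjusted p 0.0524), with 13.8 to 39.5 FPKM in hybrids (median 22.2) and 17.2 to 59.9 FPKM in inbreds (median 39.5). The D share of this pair was 39.7% in hybrids and 50.6% in inbreds, but it ranged from 30.9% to 71.3% over libraries.

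Uroporphyrinogen-III synthase Gh_D05G1919 had 6.29, 7.92 and 7.90 FPKM in H leaf, 3.45, 6.84 and 4.31 FPKM in M leaf and 6.34, 6.49 and 5.29 FPKM in L leaf. The inbred leaves had 11.8, 13.0 and 14.4 FPKM in A, 11.8, 12.2 and 12.6 FPKM in B, 13.2, 14.0 and 9.88 FPKM in C and 13.8, 11.9 and 8.66 FPKM in D. The highest hybrid library, at 7.92 FPKM, was below the lowest inbred library, at 8.66 FPKM. The log2 difference was -0.93 ± 0.10 (limma adjusted p 1.22e-06), just inside the 2-fold limit.

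The second row of this enzyme, Gh_Sca004838G03, was weaker and separated in the same way. It had 1.73, 2.16 and 2.23 FPKM in H leaf, 0.773, 1.83 and 1.03 FPKM in M leaf and 2.00, 1.87 and 1.54 FPKM in L leaf, against 3.67, 4.87 and 4.75 FPKM in A, 3.95, 4.29 and 4.03 FPKM in B, 4.19, 4.13 and 3.24 FPKM in C and 4.13, 3.90 and 3.68 FPKM in D. No hybrid library reached the inbred minimum of 3.24 FPKM. The log2 difference was -0.94 ± 0.08 (limma adjusted p 4.81e-08). It went past the 2-fold limit, at -1.28, with a pseudocount of 0.1 in place of 1, and so did Gh_D05G1919, at -1.03. These were the only 2 of the 35 members whose hybrid and inbred leaf libraries did not overlap, against 2.13% of all genes not overlapping with hybrids lower and 5.87% in either direction.

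**Figure D3:**
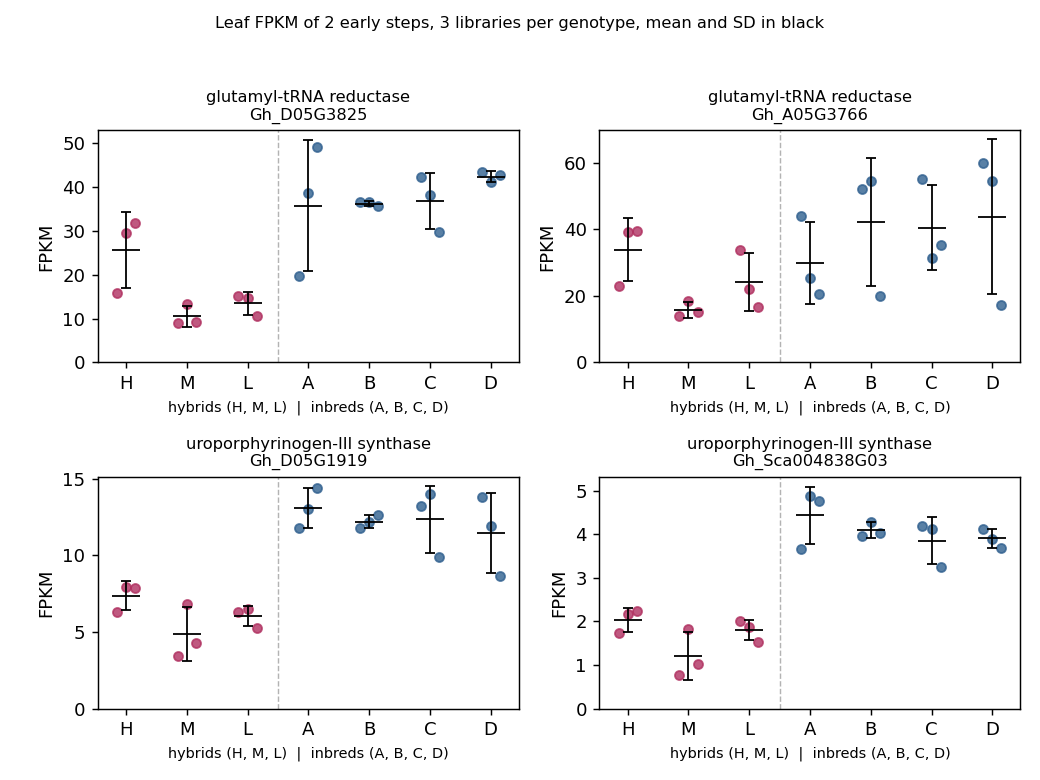
Leaf FPKM of glutamyl-tRNA reductase (Gh_D05G3825, Gh_A05G3766) and uroporphyrinogen-III synthase (Gh_D05G1919, Gh_Sca004838G03) by genotype, hybrids left of inbreds. Points are libraries, and black marks are the mean and SD of 3. Both synthase rows separate hybrids from inbreds, while the reductase is lowest in M and L.

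The other ring-forming enzymes moved less. Hydroxymethylbilane synthase Gh_A03G1456 had 34.7 to 69.3 FPKM in hybrid leaves and 50.3 to 85.4 FPKM in inbred leaves, a log2 difference of -0.33, and Gh_D02G1915 had 22.1 to 45.7 FPKM in hybrids and 35.0 to 55.2 FPKM in inbreds, a difference of -0.36. Coproporphyrinogen III oxidase Gh_A08G0463 (0.20) and Gh_D07G1874 (0.21) went the other way. These 4 passed the adjusted p alone, with overlapping libraries, and had an adjusted p of 0.0772 to 0.219 with genotype means as the units.

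Of the magnesium chelatase rows, 1 of subunit H and 1 of subunit I passed the adjusted p alone in leaf, both lower in hybrids, and neither passed with genotype means as the units. Subunit H Gh_A09G1143 had 147.9, 177.2 and 175.8 FPKM in H, 112.3, 107.5 and 136.3 FPKM in M and 165.0, 138.8 and 134.6 FPKM in L, against 154.9 to 213.8 FPKM in inbreds with a median of 195.4. Its log2 difference was -0.42 ± 0.06 (limma adjusted p 2.10e-05), and with genotype means as the units the adjusted p was 0.0871. The D copy Gh_D09G1147 differed by -0.07, so the D share of the pair was 48.1% in hybrids and 42.2% in inbreds. By genotype this share was 48.1% in H, 48.8% in M and 47.6% in L, against 47.7% in A, 39.7% in B, 38.2% in C and 43.1% in D, so that the hybrids were close to their common parent A. Subunit I Gh_D10G0283 had 70.5 to 103.5 FPKM in hybrids and 97.0 to 128.1 FPKM in inbreds (-0.37 ± 0.05, limma adjusted p 2.22e-05, with genotype means 0.0632).

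Protochlorophyllide oxidoreductase form A differed between inbreds as well as between hybrids and inbreds. Gh_D05G3468 had 313.1, 300.4 and 346.3 FPKM in H leaf, 230.6, 390.2 and 225.4 FPKM in M leaf and 316.8, 282.2 and 303.3 FPKM in L leaf. In inbred leaves it had 101.0, 102.8 and 139.2 FPKM in A, 187.0, 182.5 and 218.7 FPKM in B, 241.6, 226.9 and 152.6 FPKM in C and 313.4, 314.6 and 318.7 FPKM in D. Inbred A was lowest, and the level of D lay among those of the hybrids. The log2 difference of hybrids minus inbreds was 0.61 ± 0.10 (limma adjusted p 0.000166), but with genotype means as the units the adjusted p was 0.233. The hybrids set against C and D alone differed by 0.23 (limma adjusted p 0.215). C and D were taken as the inbreds of lower read quality in leaf from the study's sequencing summary, although their mapped share was close to that of A and B.

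The A copy Gh_A04G0240 had 241.3, 224.1 and 255.0 FPKM in H leaf, 167.8, 314.1 and 161.9 FPKM in M leaf and 249.4, 216.9 and 219.3 FPKM in L leaf, against 88.4, 95.4 and 122.3 FPKM in A, 158.5, 155.6 and 186.3 FPKM in B, 188.2, 186.2 and 125.7 FPKM in C and 235.1, 207.7 and 244.5 FPKM in D. Inbred A was again lowest, and its libraries overlapped with those of no other genotype. The other form A pair did not share it: Gh_D13G1533 had 48.2 to 123.4 FPKM in hybrids and 71.2 to 148.3 FPKM in inbreds (-0.40, limma adjusted p 0.0128, with genotype means 0.227). Form C hardly differed, with log2 differences of 0.10 for Gh_D04G1415 and -0.10 for Gh_A04G0903.

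**Figure D4:**
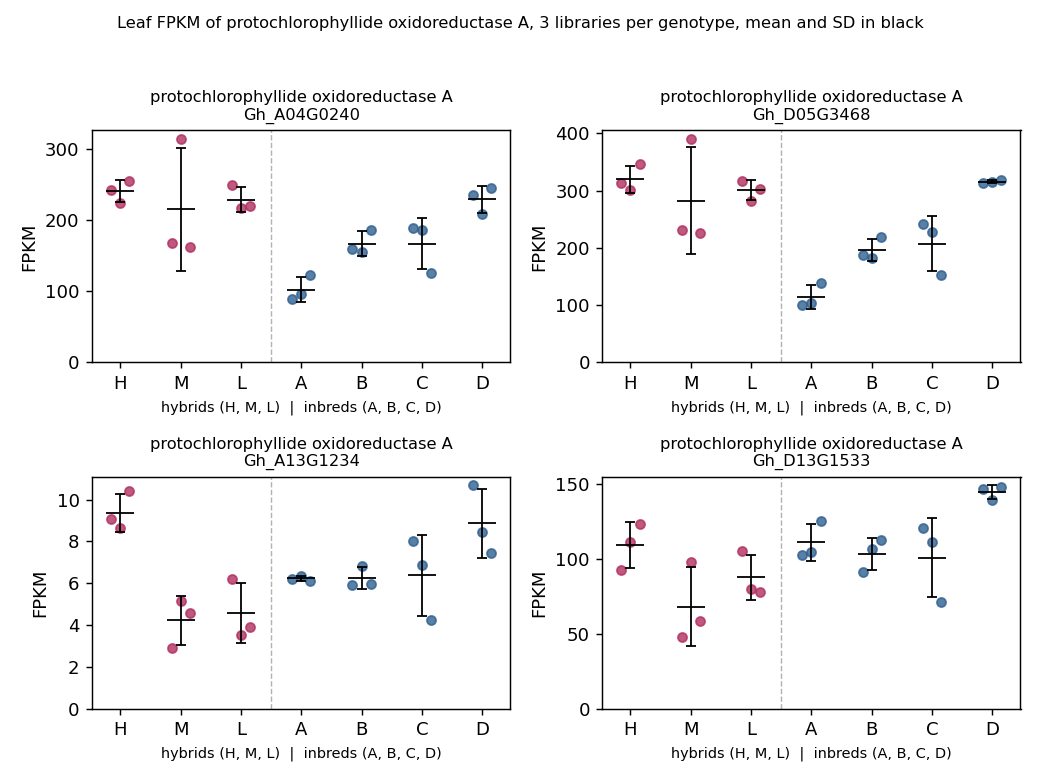
Leaf FPKM of the 4 rows of protochlorophyllide oxidoreductase form A by genotype, hybrids left of inbreds. Points are libraries, and black marks are the mean and SD of 3. Gh_D05G3468 and Gh_A04G0240 are lowest in inbred A and as high in inbred D as in the hybrids, while Gh_A13G1234 and Gh_D13G1533 have their lowest means in M.

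Light-harvesting genes, whose proteins bind chlorophyll, were also lowest in inbred A on average. Their summed level was 8810.5 to 10956.9 FPKM in H leaf, 8045.3 to 9223.1 in M leaf and 8243.4 to 10478.6 in L leaf, against 7037.3 to 7536.3 FPKM in A, 8347.8 to 8899.8 in B, 7520.7 to 8625.3 in C and 9180.5 to 10532.8 in D. Of the 40 light-harvesting rows tested in leaf, none was called higher in hybrids and 1 was called lower, against 1.63% and 0.934% of all genes. Whether these levels had a part in those of form A was not tested.

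Each hybrid was then compared with both of its parents in leaf. The comparisons of one hybrid share its libraries, and all hybrids share the libraries of A. In M leaf, 3 of 35 members were called lower than in both parents, against 1.21% of all genes. Gh_D05G3825 differed by -1.61 ± 0.28 from A and by -1.72 ± 0.28 from C, Gh_D05G1919 by -1.30 ± 0.18 and -1.21 ± 0.18, and Gh_Sca004838G03 by -1.32 ± 0.14 and -1.16 ± 0.14. Without replicate 1 of each genotype, the differences of Gh_D05G1919 and Gh_Sca004838G03 from C came to -0.99 and -0.96 and were no longer called. Without replicate 1 of M leaf alone the count was still 3.

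In L leaf, Gh_D05G3825 was the 1 member called lower than in both parents, by -1.27 ± 0.28 from A and by -1.61 ± 0.28 from D, against 0.657% of all genes. The call against A was lost without replicate 2, where the difference was -1.24 (limma adjusted p 0.0766), and without replicate 3, where it was -0.85 (0.127), and A leaf ranged from 19.6 to 49.2 FPKM. In H leaf none of the members was beyond both parents, against 0.801% of genes called lower and 1.50% called higher. The count for H was also 0 with limma's unadjusted p under 0.05, and Gh_D05G3825 differed from A by -0.43 and from B by -0.54. No member was called higher than both parents in any hybrid.

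A direct comparison of hybrids was added after the values were seen. In leaf, 2 members were called lower in M than in H, against 0.624% of all genes: Gh_D05G3825 (-1.18 ± 0.28, limma adjusted p 0.0239) and Gh_A13G1234 (-1.01 ± 0.20, limma adjusted p 0.00879). Gh_A13G1234, the weak A copy of the second form A pair, had 2.90, 5.17 and 4.60 FPKM in M leaf against 9.09, 8.64 and 10.4 FPKM in H leaf, with no overlap. The comparisons between hybrids were not repeated without replicate 1 of M leaf, which had the lowest M level of both called rows. No member was called between L and H or between M and L in leaf, where limma's unadjusted p also gave 0 members, against 0.595% and 0.640% of all genes called by the adjusted p. The uroporphyrinogen-III synthase rows were intermediate, with M minus H differences of -0.55 for Gh_D05G1919 and -0.49 for Gh_Sca004838G03 that were not called.

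One pair of form A was higher in the leaf of every hybrid than in that of inbred A. Gh_D05G3468 differed from A by 1.49 ± 0.19 in H, 1.26 ± 0.19 in M and 1.40 ± 0.19 in L, and Gh_A04G0240 by 1.24 ± 0.21, 1.01 ± 0.21 and 1.17 ± 0.21, and these were the only members called higher than A, against 3.26%, 3.66% and 3.13% of all genes. Against the other parent neither row was called: Gh_D05G3468 differed by 0.71 between H and B, by 0.42 between M and C and by -0.07 between L and D. Without replicate 2, which held the 390.2 FPKM of M leaf, the M minus A differences came to 0.94 and 0.66 and were no longer called.

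Among the inbreds, the same pair gave the only called differences in leaf. Gh_D05G3468 was higher in D than in A by 1.47 ± 0.19 and Gh_A04G0240 by 1.17 ± 0.21, which made 2 of 35 members called in at least 1 comparison of B, C or D with A, against 3.68% of all genes. The call of Gh_A04G0240 was lost without replicate 1 (1.05, limma adjusted p 0.0703). The methyltransferase rows had the largest differences between parents by size but did not pass. Gh_D07G0473;Gh_D07G0474 had 6.50, 18.6 and 17.1 FPKM in D leaf against 3.44, 1.64 and 2.42 FPKM in A leaf, a difference of 2.02 ± 0.88 (limma adjusted p 0.189), and Gh_A07G0409 a difference of 1.72 ± 0.94 (limma adjusted p 0.314) that rested on the library of 88.8 FPKM.

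In root, no member was called between hybrids and inbreds, as none passed the 2-fold limit on the log2(FPKM + 1) scale. Among those that passed the adjusted p alone, subunit H Gh_A09G1143 averaged 9.26 ± 1.98 FPKM in hybrids and 16.9 ± 3.13 FPKM in inbreds, and form C Gh_A04G0903 averaged 7.55 ± 1.33 FPKM in hybrids and 5.11 ± 0.736 FPKM in inbreds (SD, n = 9 and 12). Of the 33 members tested, limma called 0, and also 0 with the unadjusted p under 0.05 and the same 2-fold limit, against 2.12% of the 59282 genes tested. By the adjusted p alone, 6 members were higher in hybrids and 4 were lower, against 21.5% and 14.6% of all genes. The median log2 difference was 0.06 over the members and 0.05 over all genes. A weak member could differ by a larger ratio of FPKM without a call. Methyltransferase Gh_A07G0409 averaged 0.0353 FPKM in hybrids and 0.944 FPKM in inbreds, where libraries of C and D set the mean.

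Subunit H Gh_A09G1143 had 12.5, 8.84 and 10.5 FPKM in H root, 8.17, 11.6 and 7.79 FPKM in M root and 9.83, 7.53 and 6.59 FPKM in L root. The inbreds had 21.4, 21.3 and 22.6 FPKM in A, 15.2, 14.7 and 14.6 FPKM in B, 14.6, 13.6 and 17.1 FPKM in C and 16.6, 14.4 and 16.1 FPKM in D. No hybrid library reached the inbred minimum of 13.6 FPKM, and A stood above the other inbreds. The log2 difference was -0.80 ± 0.08 (limma adjusted p 6.17e-07, with genotype means 0.0287). Gh_D09G1147 had 4.32 to 7.03 FPKM in hybrids and 6.16 to 13.4 FPKM in inbreds, with a log2 difference of -0.54 ± 0.08 (limma adjusted p 6.28e-05) that missed the threshold with genotype means as the units (adjusted p 0.111).

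Form C went the other way in root. Gh_A04G0903 had 8.11, 7.05 and 7.18 FPKM in H root, 6.48, 10.8 and 7.51 FPKM in M root and 7.63, 6.66 and 6.50 FPKM in L root, against 4.19, 5.51 and 5.92 FPKM in A, 4.57, 5.44 and 4.51 FPKM in B, 4.50, 4.22 and 5.71 FPKM in C and 5.92, 4.66 and 6.18 FPKM in D. All hybrid libraries lay above all inbred libraries, with a log2 difference of 0.48 ± 0.08 (limma adjusted p 0.000256, with genotype means 0.0245). Gh_D04G1415 had 7.34 to 17.8 FPKM in hybrids and 4.51 to 8.44 FPKM in inbreds (0.62 ± 0.10, limma adjusted p 8.41e-05). Its adjusted p was 0.0650 with genotype means as the units and 0.201 with the hybrids set against D alone, the inbred of lower read quality in root, where the difference was 0.30.

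**Figure D5:**
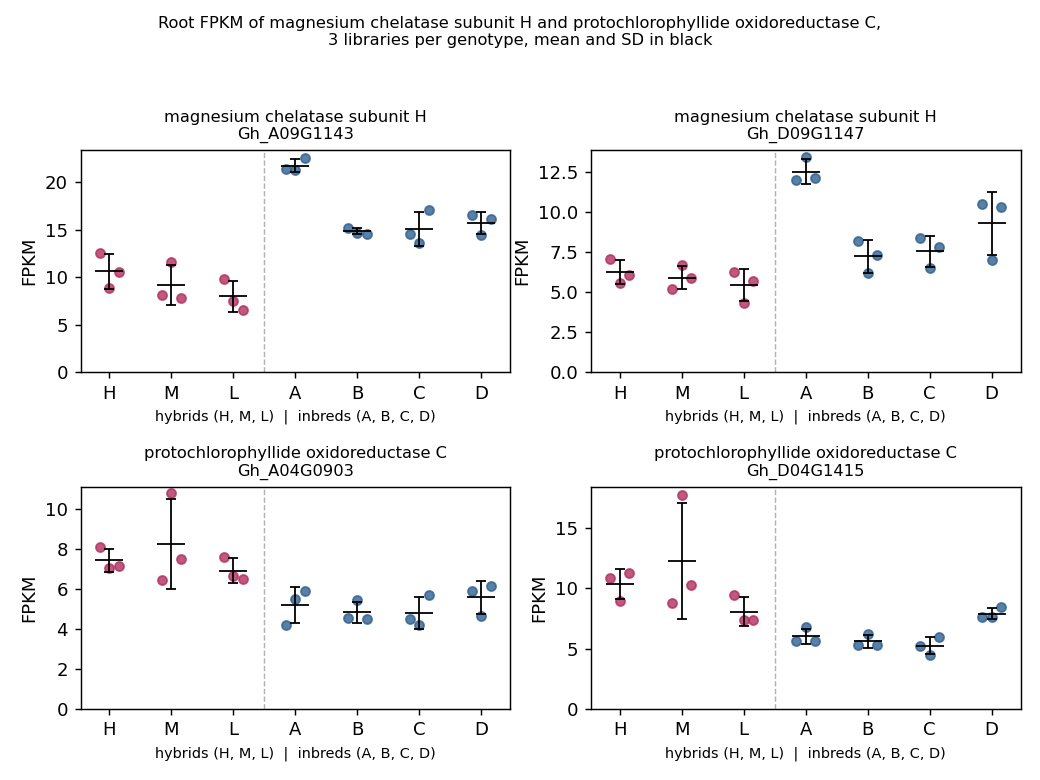
Root FPKM of magnesium chelatase subunit H (Gh_A09G1143, Gh_D09G1147) and protochlorophyllide oxidoreductase form C (Gh_A04G0903, Gh_D04G1415) by genotype, hybrids left of inbreds. Points are libraries, and black marks are the mean and SD of 3. Gh_A09G1143 is lower in all hybrid libraries than in any inbred library, and Gh_A04G0903 is higher.

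These were the 2 of 33 members whose hybrid and inbred root libraries did not overlap, 1 lower and 1 higher, against 1.50% of all genes lower and 1.85% higher. The other members that passed the adjusted p alone in root differed by 0.16 for uroporphyrinogen decarboxylase Gh_A04G0344, 0.35 and 0.40 for coproporphyrinogen III oxidase Gh_A11G1434 and Gh_D11G1586, 0.38 for form A Gh_D05G3468, -0.18 for Gh_A03G1456 and -0.24 for Gh_D05G1919. The oxidase pair was the one that differed little between leaf and root.

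No member was beyond both parents in the root of H, M or L, also with limma's unadjusted p under 0.05, against 1.41%, 1.20% and 1.49% of all genes in either direction. Single comparisons with 1 parent were called for a few. Gh_A09G1143 was lower than in A by -1.36 ± 0.14 in L and by -1.18 ± 0.14 in M, and Gh_D09G1147 by -1.09 ± 0.15 in L, while 1.84% of genes were called lower in L minus A and 1.77% in M minus A. Gh_D05G3468 was higher in M than in A by 1.13 ± 0.24, against 1.78% of genes, and Gh_D04G1415 was higher in M than in C by 1.04 ± 0.18, against 1.68%. The calls of Gh_D09G1147, Gh_D05G3468 and Gh_D04G1415 were lost without replicate 2, at -0.91, 0.93 and 0.68, and that of Gh_D05G3468 also without replicate 3 (1.09, limma adjusted p 0.0957).

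Between the inbreds, no member was called in root by limma's adjusted p, and 1 passed with the unadjusted p, against 4.46% of all genes called in at least 1 comparison with A. This was methyltransferase Gh_A07G0409, which had 0, 2.94 and 3.68 FPKM in C root and 2.51, 0.0319 and 2.03 FPKM in D root, against 0.0744 FPKM and 2 libraries listed at 0 in A root. The log2 differences were 1.37 ± 0.46 for C minus A (limma adjusted p 0.0894) and 1.12 ± 0.46 for D minus A (0.117), with wide spread inside C and D.

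The hybrid difference in leaf was set against that in root in a single model over 42 libraries. Its p-values measure the spread of replicates within genotypes, and it was not repeated with genotype means as the units. Gh_D05G3825 was the 1 of 38 members called, at -1.16 ± 0.17 (limma adjusted p 3.12e-06), against 1.27% of all genes called lower and 2.52% in either direction. Its root levels were 1.24 to 1.98 FPKM in hybrids and 1.05 to 2.16 FPKM in inbreds, a root difference of -0.08. By the adjusted p alone, 9 of the 38 members (23.7%) passed, against 27.0% of all genes: 7 members had a lower hybrid difference in leaf than in root and 2 a higher one, against 12.0% and 15.0% of all genes. The uroporphyrinogen-III synthase rows and both form C rows were among the 7, and both subunit H copies were the 2.

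Genes next to the route gave 1 called row in root and none in leaf among the 34 rows described as ferrochelatase, heme oxygenase, siroheme enzymes, chlorophyllase, pheophorbide enzymes, stay-green proteins and related terms. Of these, 26 were tested in root and 27 in leaf, with median log2 differences of -0.16 and -0.04, and limma's unadjusted p with the 2-fold limit also gave 0 in leaf. Among all genes, 2.12% were called in root and 2.56% in leaf, in either direction. The called row was Gh_D08G1908, described as non-yellowing 1, a stay-green protein known to promote chlorophyll breakdown. It averaged 3.49 FPKM in H root, 3.52 in M root and 3.22 in L root, against 10.0 FPKM in A, 6.29 in B, 5.92 in C and 11.8 in D (-1.05 ± 0.12, limma adjusted p 3.82e-06). A further 20 rows, chosen after the values were seen, carried the orthology entries of the steps not covered by the descriptions, among them porphobilinogen synthase, protoporphyrinogen oxidase, the other chelatase subunits, the cyclase and chlorophyll synthase. Limma called 0 of the 17 tested in root and 0 of the 18 tested in leaf, against the same 2.12% and 2.56% of all genes. An unadjusted p under 0.05 with the 2-fold limit also gave 0 in each. The median log2 differences of these rows were -0.05 and 0.00.

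The KEGG term held 419 further rows. In root, 16 were called higher and 3 lower of 207 tested, against 1.28% and 0.847% of all genes, and in leaf 1 was called higher and 2 lower of 166 tested, against 1.63% and 0.934%. Their median log2 differences were 0.02 in root and -0.02 in leaf. Most of the rows called in root were not described as enzymes of the route. GDSL-type lipases, which act on lipid esters, made up 8 of those called higher, among 16 tested, and MYB or homeodomain proteins, which bind DNA, made up 5 among 98. Each class also had 1 row called lower, the lipase Gh_A01G0634 (-1.81) and the MYB-like Gh_A01G0526 (-1.27). The 6 with the largest differences were Gh_D10G0915 (2.77), Gh_A10G0839 (2.68), Gh_A08G0481 (2.64), Gh_A11G0289 (2.47), Gh_D11G0346 (2.33) and Gh_D08G0564 (2.28), all described as GDSL-like lipases or SGNH hydrolase-type esterases. They carried the same orthology entry as geranylgeranyl reductase, the enzyme that makes the phytyl tail of chlorophyll.

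Of the rows of the KEGG term called in leaf, 2 were described as ACD1-like. Both, with the orthology entry of pheophorbide a oxygenase, a chlorophyll breakdown enzyme, were lower in hybrids than in inbreds. Gh_D08G2762;Gh_D08G2763;Gh_D08G2764 had 4.40 to 9.87 FPKM in hybrid leaves and 17.2 to 27.4 FPKM in inbred leaves (-1.48 ± 0.07, limma adjusted p 2.37e-11), and Gh_A08G2526 had 9.38 to 18.6 FPKM in hybrids and 27.6 to 41.9 FPKM in inbreds (-1.25 ± 0.07, limma adjusted p 2.82e-10), in both cases with no overlap. The first of these rows was also called lower in root, with 0.640 to 1.29 FPKM in hybrids and 2.09 to 5.84 FPKM in inbreds (-1.13 ± 0.07, limma adjusted p 5.39e-09). The row called higher in leaf, Gh_A03G0591, carried the geranylgeranyl reductase entry and averaged 289.3 ± 11.3 FPKM in H leaf, 245.2 ± 16.3 in M leaf and 277.8 ± 14.9 in L leaf, against 7.56 ± 2.29 FPKM in A, 10.9 ± 8.29 in B, 270.3 ± 37.0 in C and 345.3 ± 21.5 in D (SD, n = 3 each). Its inbreds thus fell into A and B with low levels and C and D with levels like those of the hybrids, and H was high although both of its labelled parents were low. The labels of the hybrids were therefore set against rows with at least 5 FPKM in all leaf libraries of 1 inbred and under 1 FPKM in all those of the others, a check added after the values were seen. Of 6 such rows of B, 5 reached 1 FPKM in all H libraries, 2 in all M libraries and 0 in all L libraries. Of 6 rows of C, the counts were 0 in H, 4 in M and 0 in L, and of 12 rows of D they were 0 in H, 2 in M and 10 in L. Each hybrid had most of the leaf rows of its labelled paternal parent, and M also had a few rows of B and D. Why Gh_A03G0591 was high in H was not tested.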

How the data were processed

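The authors aligned paired reads to the Gossypium hirsutum TM-1 genome with HISAT2 (HISAT in the submitters' processing notes) and assembled and quantified transcripts with StringTie (versions not given in the sources used here), and deposited the FPKM of each gene in 42 libraries. No counts or depths were used. The members and gene lists were chosen with earlier results of these data known. Log2(FPKM + 1) values were fitted with limma 3.58.1 in R 4.3.3 (the data.table package, version 1.17.8), with a mean-variance trend, 1 mean per genotype and tissue, and Benjamini-Hochberg adjustment over the genes that reached 1 FPKM in 3 or more libraries. A call needed a 2-fold difference (1 on the log2 scale) together with an adjusted p below 0.05, and tests were 2-sided. The code was tested on simulated data. Figures were drawn with matplotlib 3.10.9.

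Named members were the strongest of each enzyme in leaf or root, those called or beyond both parents, the largest parental differences, and their A or D partners. Members that passed the adjusted p alone, hybrid pairs and 20 further rows by orthology were added after the values were seen. Marker rows were found by description. In leaf, 44 photosystem I rows tested gave 1 called higher in hybrids and 0 lower, 81 photosystem II rows 0 and 1, 6 Rubisco small subunit rows 0 and 0, and 14 root hair rows 0 and 0. In root, 17 root hair rows gave 0 and 0, 23 nitrate transporter rows 5 higher and 6 lower, and 19 phosphate transporter rows 1 and 2. Among all genes, 1.63% were called higher and 0.934% lower in leaf, and 1.28% and 0.847% in root. No row matched the Casparian term.

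Replicates were labelled by number. Deviations of same-numbered libraries from their genotype means had a median correlation of 7.15e-05 in root and -0.00756 in leaf, and root and leaf of 1 number 0.00940 (-0.0727 to 0.0674 over 21 pairs), so the numbers were not used as a block. Alternatives were another pseudocount, no filter, quantile normalization, the block, each replicate left out, the unadjusted p, no fold limit, genotype means, genotypes of lower read quality in the study's sequencing summary, and single triads.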

Additional observations from a re-analysis of the deposited data

Results flagged for a closer look

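For 9 members, the hybrid difference in leaf differed from that in root by the test of the difference itself (limma, adjusted p over 69603 genes). These were 23.7% of the 38 members tested, against 27.0% of all genes, so the share is no result about the members. Gh_D05G3825, glutamyl-tRNA reductase, differed by -1.16 (leaf -1.24, root -0.08). The uroporphyrinogen-III synthase rows differed by -0.73 for Gh_Sca004838G03 (leaf -0.94, root -0.20) and -0.68 for Gh_D05G1919 (leaf -0.93, root -0.24). Form C of protochlorophyllide oxidoreductase differed by -0.58 for Gh_A04G0903 (leaf -0.10, root 0.48) and -0.52 for Gh_D04G1415 (leaf 0.10, root 0.62). Magnesium chelatase subunit I Gh_D10G0283 differed by -0.38 (leaf -0.37, root 0.01) and coproporphyrinogen III oxidase Gh_A07G1663 by -0.26 (leaf -0.06); this row did not pass the filter in root and entered the test only through leaf, and without it 8 of the 30 members that passed in each tissue remained. Subunit H differed in the other direction, by 0.38 for Gh_A09G1143 (leaf -0.42, root -0.80) and 0.47 for Gh_D09G1147 (leaf -0.07, root -0.54). Adjusted p ranged from 3.12e-06 to 0.0258, and only the difference of Gh_D05G3825 was past 2-fold. These p-values measure the spread of replicates within genotypes, and the test was not repeated with genotype means as the units.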

How the results depend on the processing

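The count of members called between leaf and root was 28 to 38 under 10 alternatives, all within 1.5 times the main count of 30, and no called value changed sign. With a pseudocount of 0.1, 3 members were called in leaf between hybrids and inbreds, 2 in L leaf and 1 in M root beyond both parents, and 1 between inbreds in root. Quantile normalization gave 2 between hybrids and inbreds in leaf, and the unadjusted p gave 1 between inbreds in root. Without the fold limit, 13 members passed in leaf and 10 in root between hybrids and inbreds, 9 in the comparison of the 2 tissues, against 37.7%, 36.1% and 27.0% of all genes. Beyond both parents, 3 passed in H leaf (13.7% of all genes), 5 in M leaf (14.0%), 6 in L leaf (10.2%), 3 in H root (7.95%), 4 in M root (6.98%) and 2 in L root (10.6%), and between inbreds 4 in leaf (14.8%) and 3 in root (20.8%). With 1 replicate left out of each genotype, the counts ran from 1 to 2 for hybrids and inbreds in leaf, 1 to 3 for M leaf, 0 to 1 for L leaf, 0 to 2 for M root, 0 to 1 for L root and 0 to 1 between inbreds in root. With the replicate block, 1 member was called in leaf and 0 in root between hybrids and inbreds, and the block changed no other call. Within a tissue, the block was a term for the replicate number shared by all genotypes. In the fit over both tissues, it treated root and leaf of 1 number as 1 plant (estimated correlation -0.00318). Without M leaf replicate 1, an alternative chosen after seeing the data, the counts were 1 between hybrids and inbreds and 3 in M leaf. Gh_D05G3825 was called between hybrids and inbreds in leaf under all 12 alternatives (-1.33 to -1.20). Where a count moved, the cause was not tested.

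FPKM came without counts, so no counting error is given. The study lists valid and mapped reads by genotype and tissue. Roots of the hybrids had fewer valid reads than roots of the inbreds, and M had the lowest mapped share in leaf. Leaves of A and B had more valid reads than leaves of C, D and the hybrids. Whether these differences had a part in the results was not tested. With 3 replicates per genotype, and no label that names their plants, p-values measure the spread between these libraries. Reads of near-identical A and D copies could not be told apart here.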
